A study of Mus musculus with 8 samples.

Results

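The genes described here are 9 mouse genes whose human counterparts lie at risk loci for Alzheimer disease and which are used by microglia, the resident macrophages of the brain: Bin1, Picalm, Sorl1, Cd2ap, Rin3, Inpp5d, Abi3, Cass4 and Ptk2b. Their regions were taken as the rows of the deposited table whose gene name, the gene with the nearest annotated start site, equals one of these symbols. This gave 231 of the 129304 listed regions, each 800 bp wide, and 8 of the 18707 gene names in the table. Abi3 is the exception: 0 regions carry its name, and the regions inside its transcripts are described separately below under the names they carry.

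H3K27ac, the acetylated form of lysine 27 on histone H3 that is found at promoters and enhancers in use, was mapped by ChIP-seq (sequencing of immunoprecipitated chromatin) in nuclei sorted from the brains of C57BL/6 mice aged 2 years. The nuclei were positive for PU.1, a transcription factor of myeloid cells, and negative for OLIG2 and NEUN, which mark oligodendrocyte-lineage cells and neurons. Wild-type mice (WT) were compared with GrnKO mice, which lack a functional gene for progranulin, a secreted protein that reaches lysosomes; the labels give no more on the allele, and no treatment. Each genotype had 2 H3K27ac libraries, each from nuclei pooled from 2 mice, and 2 matching input libraries of chromatin sequenced without immunoprecipitation.

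Most of these genes act in one of 2 cell biological routes. BIN1, PICALM, SORL1, CD2AP and RIN3 proteins shape or sort membranes in endocytosis, the uptake of membrane and cargo from the cell surface and their passage through endosomes. INPP5D, ABI3, CASS4 and PTK2B proteins act in signalling below receptors and integrins and on the actin cytoskeleton that moves microglial processes.

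The promoter sequences of 4 of these genes are shown because the H3K27ac results differ between them: Cass4 has the only promoter region of the set that passed the threshold downward, the region just downstream of the Sorl1 start passed it upward, and at Picalm and Inpp5d regions in introns passed it while the promoter region did not. Each run holds the 250 bases before a RefSeq start site on the GRCm38.p6 build, read 5′ to 3′ along the strand of the gene, and each lies within a listed region. Capitals mark matches, on either strand, to any of 5 short motifs: GGAAGT, a core bound by Ets factors such as PU.1; TGANTCA, bound by AP-1; CACGTG, an E-box bound by factors such as TFEB and USF; GGGCGG, a GC box; and CCAAT. Matches to different motifs could overlap, and each was counted. The windows lie at chr2:172393394-172393643 on the plus strand (Cass4), chr9:42124298-42124547 on the minus strand (Sorl1), chr7:90129963-90130212 on the plus strand (Picalm) and chr1:87620062-87620311 on the plus strand (Inpp5d). The RefSeq start of Cass4 used here lies 150 bp from the start that the table implies.
Cass4: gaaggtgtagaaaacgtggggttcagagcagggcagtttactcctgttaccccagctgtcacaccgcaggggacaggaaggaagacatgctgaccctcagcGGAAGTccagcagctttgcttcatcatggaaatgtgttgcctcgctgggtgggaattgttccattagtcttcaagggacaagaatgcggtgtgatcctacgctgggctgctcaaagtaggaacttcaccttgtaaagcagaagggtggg
Sorl1: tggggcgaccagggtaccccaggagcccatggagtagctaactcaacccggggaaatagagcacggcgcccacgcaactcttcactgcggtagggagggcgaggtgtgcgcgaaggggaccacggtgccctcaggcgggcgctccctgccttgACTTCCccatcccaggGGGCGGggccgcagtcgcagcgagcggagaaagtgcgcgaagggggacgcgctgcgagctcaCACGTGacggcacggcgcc
Picalm: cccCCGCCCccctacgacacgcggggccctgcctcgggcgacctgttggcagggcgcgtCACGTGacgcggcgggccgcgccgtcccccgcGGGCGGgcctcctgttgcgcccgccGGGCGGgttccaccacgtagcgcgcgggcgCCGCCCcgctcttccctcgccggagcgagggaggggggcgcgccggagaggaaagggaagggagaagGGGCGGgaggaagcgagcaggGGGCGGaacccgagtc
Inpp5d: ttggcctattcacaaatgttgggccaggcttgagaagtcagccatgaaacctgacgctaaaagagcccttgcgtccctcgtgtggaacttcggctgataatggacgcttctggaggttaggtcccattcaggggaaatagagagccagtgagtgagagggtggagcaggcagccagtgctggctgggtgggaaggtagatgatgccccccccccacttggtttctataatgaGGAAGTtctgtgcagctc
The Cass4 and Inpp5d windows each held 1 Ets core and no other of these motifs. The Sorl1 window held 1 Ets core, 1 E-box and 1 GC box. The Picalm window held 1 E-box and 6 GC boxes. Over 32851 RefSeq promoter windows of the same length, 19.7% held an Ets core, 6.02% an E-box, 32.7% a GC box, 6.75% an AP-1 motif and 33.8% a CCAAT box. Cass4 and Inpp5d had 52.8% and 54.4% G and C bases with 6 and 5 CG dinucleotides, near the medians of 52.4% and 6 over all windows. Sorl1 and Picalm were richer, with 69.6% and 79.2% G and C and 26 and 39 CG dinucleotides. A match describes letters in a window and says nothing on whether a factor was bound.

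The H3K27ac libraries held between 15491642.5 and 20030832 tags (mapped fragments) and the input libraries between 4078179 and 14415969. The values given below are tags per 10000000 after a further scaling between libraries by the trimmed mean of M values (TMM), called TMM-scaled tags. TMM was used because WT replicate 1 stood apart: 49.4% of its tags lay in the listed regions, against 63.3%, 64.8% and 65.7% in the other 3 H3K27ac libraries. Under the authors' scaling to the library total alone, the log2 changes had a median of 0.22 over every tested region and of 0.18 over all gene sums, against -0.0020 and -0.046 with TMM. Each call below is therefore relative to the bulk of all regions, and the results that turn with the scaling are marked. Grn summed to 2291 and 1871 TMM-scaled tags in WT and 157 and 162 in GrnKO, and 2 of its 3 promoter regions were at 0 in both GrnKO libraries, as the labels state. Signal near start sites on the Y chromosome was 5.81 and 0 tags per 10000000 in replicates 1 and 270 and 220 in replicates 2, so the replicate numbers differ in this way within both genotypes. In the 4 input libraries 3052 regions could be tested, 0 of which passed an adjusted p of 0.05 in limma (491 at an unadjusted p under 0.05). These included 10 regions of the genes described here, of which 0 were under that unadjusted p.

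All 8 genes carried H3K27ac in these nuclei, to very different extents. By the strongest region of each gene in WT, Inpp5d stood at the 99.9th and Bin1 at the 99.7th percentile of all gene names, Picalm at 96.1, Cass4 at 94.5, Rin3 and Ptk2b at 94.0, Sorl1 at 87.3 and Cd2ap at 79.1. Since regions share 1 width, the mean level per non-overlapping region of 800 bp can be compared between genes: it was 238 TMM-scaled tags in WT at Inpp5d, 163 at Bin1, 94.2 at Cass4, 63.4 at Ptk2b, 50.5 at Picalm, 46.9 at Rin3, 46.8 at Sorl1 and 29.0 at Cd2ap. Summed H3K27ac exceeded the input of the same pool between 3.57-fold (Rin3, WT replicate 1) and 87.6-fold (Inpp5d, GrnKO replicate 1). Among lists of marker genes, the strongest region had a median of 639 in WT over 9 microglial markers, against 5.79 over 6 neuronal, 23.3 over 8 oligodendrocyte, 8.55 over 6 astrocyte, 111 over 4 endothelial and 30.5 over 6 border macrophage markers. Single markers of other cells still carried signal, as Slc1a3 of astrocytes with 477. The summed microglial markers gave 51934 and 54918 in WT and 42736 and 43346 in GrnKO, and 6 of 9 were called lower and 0 higher, with a median log2 change of -0.36. These markers moved in the direction of most of the genes described here. Summed markers of some other cells were higher in GrnKO without overlap: endothelial 1493 and 1685 in WT against 2040 and 2257 in GrnKO, oligodendrocyte 2709 and 2768 against 3149 and 3384, lymphocyte 261 and 219 against 655 and 484, mural cell 103 and 70.5 against 140 and 120, and border macrophage 1091 and 1066 against 1146 and 1121 (0 of 6 border macrophage markers called). Flt1, Mbp and Ms4a1 among them were called higher, while the oligodendrocyte marker Mog was called lower. The oligodendrocyte sum and the median log2 change of its list, -0.22, differ in sign. Other lists were lower without overlap: neuronal markers summed to 219 and 272 in WT and 178 and 151 in GrnKO, monocyte and neutrophil markers to 599 and 594 against 481 and 387 (Ccr2 called lower and S100a8, from at most 5.24 in WT, higher), and astrocyte markers to 3513 and 3440 against 3215 and 3267, with an astrocyte median of 0.35 that again differs in sign from its sum. The part of these markers in the results was not tested, and in pooled nuclei fewer cells of a type and less acetylation per cell cannot be told apart.

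Relative to the bulk of all regions, more regions of these genes were called lower than higher in GrnKO. The 231 regions comprised 177 in introns, 38 intergenic, 12 at promoters and the remaining 4 in exons, a noncoding exon or a 5′ untranslated region, and 19 lay within 1000 bp of the nearest start site. The filter on low values kept 208 regions, and the 23 left out averaged at most 6.37 TMM-scaled tags over the 4 libraries. At an adjusted p under 0.05 in limma, 16 regions were lower in GrnKO and 4 higher. That is 7.69% and 1.92% of the 208, against 2.92% lower and 6.8% higher, 9.71% in all, among the 80728 regions tested. With the authors' scaling the split was 1 lower and 5 higher, against 0.412% lower and 8.15% higher of all regions. The median log2 change over the 208 regions was -0.22, and 146 of them (70.2%) were below 0, as were 50.1% of all regions. With the authors' scaling 103 of the 208 were below 0. Below the median of all regions were 146 with either scaling, which follows from the method, since the scalings differ by a factor per library that shifts all regions almost alike. Both GrnKO libraries lay below both WT libraries in 84 of the 208 (40.4%, against 25.6% of all regions) and above both in 27 (12.98%, against 27.01%). With TMM each called region separated the genotypes without overlap, as the plot of values by library shows. This did not hold at every called region with the authors' scaling. The Bin1 region 33867 bp upstream then had 335 and 467 in WT and 342 and 346 in GrnKO. Of the 20 called regions 18 lay more than 1000 bp from a start site, 5 changed by at least 1 on the log2 scale, and joining those that overlap left 17 separate stretches. The number of calls moved with single libraries, here and over all regions. Without GrnKO replicate 1 there were 0 higher and 0 lower (1.41% and 0.243% of all regions), and without GrnKO replicate 2 there were 0 and 1 (1.8% and 0.509%). Without WT replicate 1 there were 7 and 26 (10.6% and 5.49% of all regions), and without WT replicate 2 there were 11 and 29 (11.9% and 5.92%). With 1 library in a genotype the spread comes from the other genotype alone. Tool and filter mattered too: of the 20 called regions 19 still passed with edgeR, 10 with DESeq2, 8 with no filter and 4 with the authors' scaling. Of all regions, edgeR called 6.91% higher and 3.13% lower, DESeq2 6.11% and 2.48% of the 68207 it gave an adjusted p, and limma with no filter 3.12% and 1.03%. The 8 that passed with no filter also passed with edgeR and DESeq2: the Bin1 region 1596 bp upstream, the Cass4 region 1352 bp past the start, Picalm at 2024 and 2337 bp, both upstream Sorl1 regions, the upstream Rin3 region and the Ptk2b region 23245 bp from its start. The 4 that passed with the authors' scaling were this Cass4 region, the higher Sorl1 region in intron 1, the upstream Rin3 region and the same Ptk2b region. With TMM the genotypes do not overlap at the 20 called regions, so leaving out a GrnKO library could not turn their direction. Their log2 changes without GrnKO replicate 1 were 0.59 to 1.33 times those reported, and without replicate 2 they were 0.67 to 1.41 times.

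**Figure D1:**
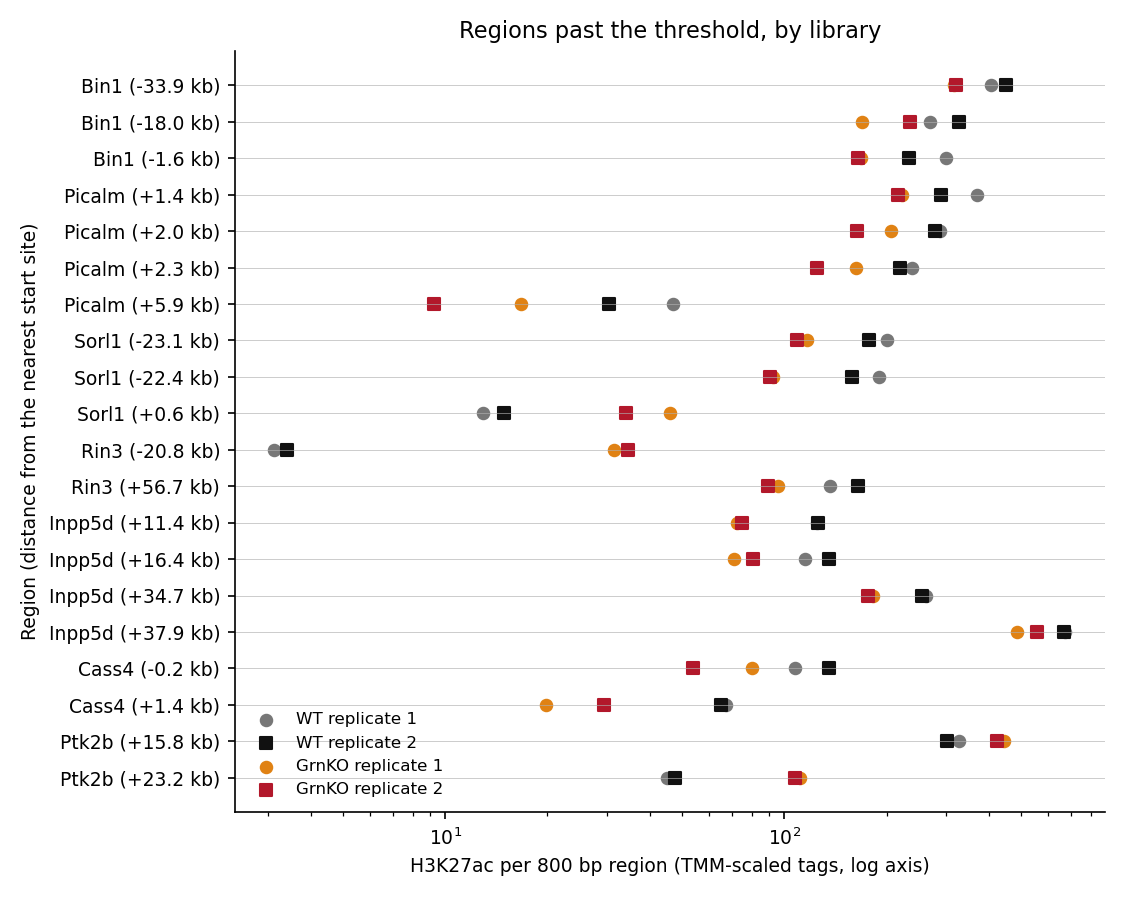
H3K27ac at the 20 regions that passed an adjusted p of 0.05, in TMM-scaled tags per 800 bp region on a log axis, with 1 point per library and the regions named by gene and signed distance from the nearest start site in kb. In every one of the 20 the 2 GrnKO points lie on one side of the 2 WT points, such as 45.0 and 47.7 in WT against 111 and 108 in GrnKO at the Ptk2b region 23245 bp from its nearest start; the upper Rin3 row passed the filter through GrnKO alone.

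Summed over all regions of a gene, H3K27ac was lower in GrnKO at 4 of the 8 genes (Picalm, Cd2ap, Inpp5d and Cass4) and higher at 0, against 5.88% lower and 8.59% higher of 15380 genes tested. With TMM the genotypes did not overlap in any of the 8 sums: both GrnKO libraries were below both WT libraries for 7 and above them for Ptk2b. The share of all gene sums without overlap was not determined, so this count has no background beside it. With the authors' scaling the genotypes stayed apart for Picalm and Ptk2b only. With the authors' scaling 0 sums passed the threshold (background 10.6% higher and 1.08% lower), and the sums of Sorl1, Rin3 and Inpp5d turned from negative to slightly positive. Taken relative to the median of all genes, the changes were almost the same under both scalings, such as -0.42 with TMM and -0.41 with the authors' scaling for Picalm. That follows from the method and is no test of the result, since the scalings differ by a factor per library that shifts all genes almost alike. Without WT replicate 1, the library that stood apart, the authors' scaling gave 5 lower (Bin1, Picalm, Cd2ap, Inpp5d and Cass4) and 1 higher (Ptk2b), against 6.93% lower and 13.8% higher of all genes. With TMM the counts were 5 lower without WT replicate 1 (12.1% higher and 8.97% lower of all genes) and 4 lower and 1 higher without WT replicate 2 (12.9% and 11.3%). They were 0 without GrnKO replicate 1 (3.62% and 1.42%) and 1 lower without GrnKO replicate 2 (4.33% and 2.45%). The log2 changes without GrnKO replicates 1 and 2 were -0.47 and -0.45 for Picalm, -0.42 and -0.54 for Cd2ap, -0.17 and -0.26 for Inpp5d and -0.39 and -0.54 for Cass4. As the genotypes do not overlap in these sums with TMM, their direction could not turn. The plots of summed H3K27ac by library and of the change under both scalings show these values.

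**Figure D2:**
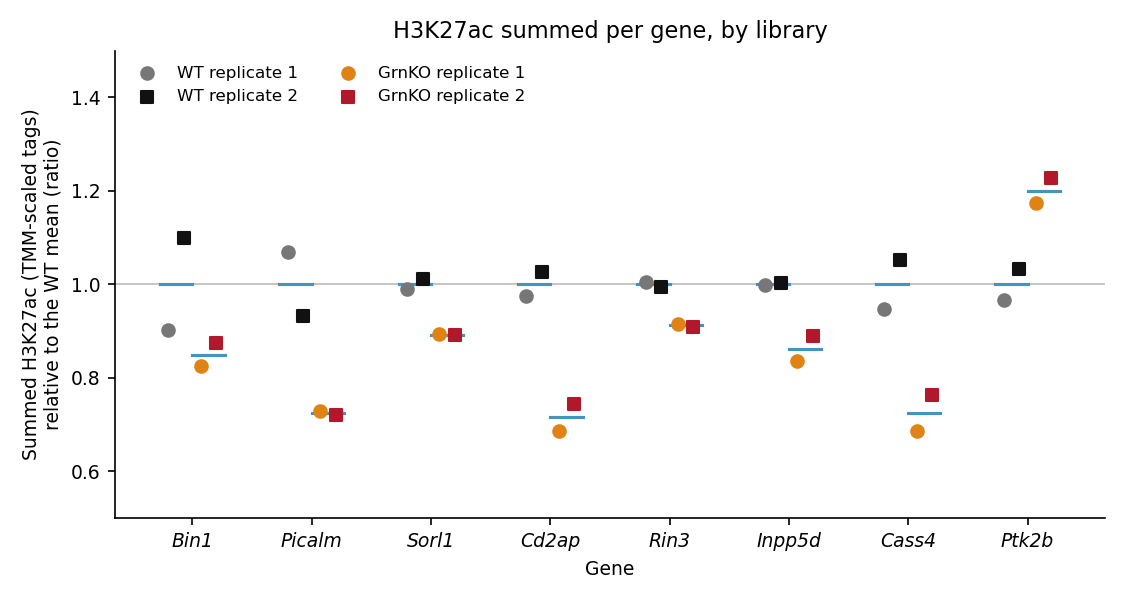
H3K27ac summed over all regions of each gene, as the ratio of each library to the mean of the 2 WT libraries (TMM-scaled tags), with 1 point per library and blue bars at the group means. The GrnKO means of Picalm, Cd2ap and Cass4 sit between 0.715 and 0.725 of WT, and Ptk2b is the only gene whose GrnKO points lie above its WT points.

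**Figure D3:**
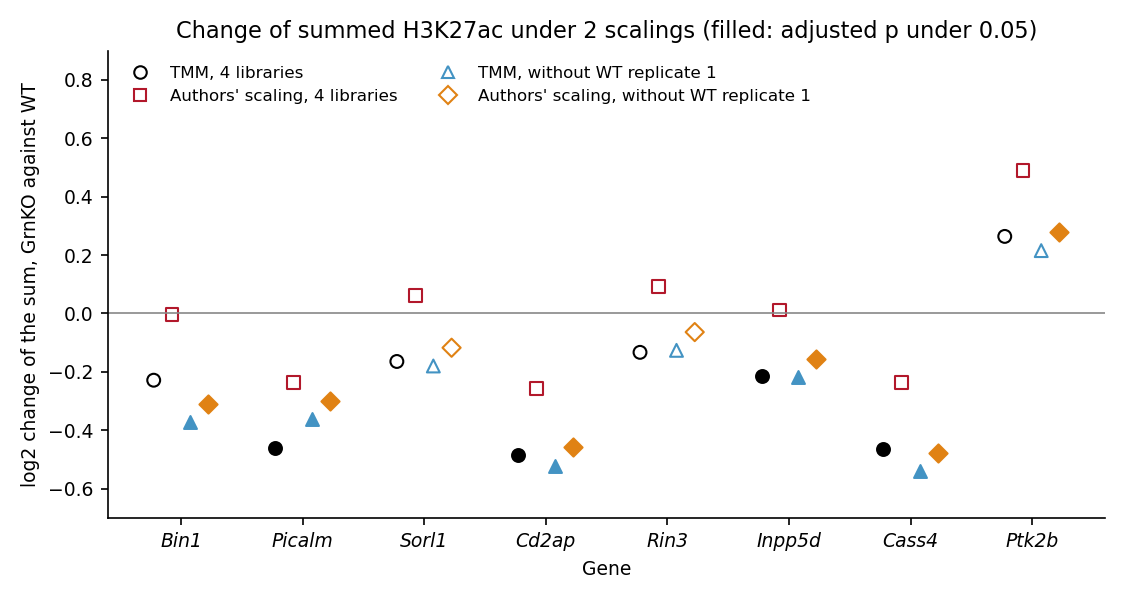
Log2 change of summed H3K27ac, GrnKO against WT, for each gene under TMM and under the authors' scaling, with all 4 libraries and without WT replicate 1; filled symbols have an adjusted p under 0.05. The authors' scaling with 4 libraries shifts every gene upward and leaves 0 filled symbols, and without WT replicate 1 both scalings give values close to each other.

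Picalm encodes a clathrin adaptor that helps form endocytic vesicles. Its 32 regions summed to 2323 and 2023 TMM-scaled tags in WT and 1584 and 1563 in GrnKO. Thus both GrnKO libraries were well below both WT libraries, at 1574 ± 14.5 against 2173 ± 212 (mean ± SD, n = 2 each). The log2 change was -0.46 (SE 0.10, adjusted p = 0.0057 in limma). From 1363 to 2337 bp past the start, 3 overlapping regions in intron 1 of 19 passed the threshold, with log2 changes of -0.58, -0.62 and -0.68 (adjusted p 0.0260, 0.0219 and 0.0244). The middle one, chr7:90131837-90132637, had 288 and 279 in WT and 206 and 164 in GrnKO. A weaker region in the same intron, 5923 bp past the start, fell further, from 46.9 and 30.4 in WT to 16.7 and 9.23 in GrnKO (log2 change -1.53, SE 0.45, adjusted p = 0.0380). The GC-rich promoter shown above held 346 and 332 in WT and 284 and 320 in GrnKO, a log2 change of -0.17 (adjusted p = 0.511) that was 0.056 with the authors' scaling. The strongest region, 815 bp past the start, had 397 and 380 in WT and 312 and 299 in GrnKO and did not pass (-0.35, adjusted p = 0.118). Of 31 tested regions 26 were below 0, and with the authors' scaling 19 were.

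Cd2ap encodes a scaffold that links membrane receptors and endocytosis to actin. It had the lowest level per region of the set, and its sum was 520 and 548 in WT and 366 and 397 in GrnKO. Group means were 534 ± 19.6 and 382 ± 22.3 (n = 2 each), a log2 change of -0.48 (SE 0.14, adjusted p = 0.0301). None of its 13 tested regions passed on its own; 10 of them were below 0, and 8 with the authors' scaling. The strongest region, intergenic and 11174 bp upstream of the start, had 138 and 106 in WT and 73.0 and 79.8 in GrnKO (log2 change -0.66, SE 0.23, adjusted p = 0.0793). At the promoter WT had 93.1 and 98.2, against 77.5 in both GrnKO libraries (-0.30, adjusted p = 0.467). Of its 18 named regions 10 are intergenic, and the sum over the 8 regions inside its transcripts did not pass (-0.27, adjusted p = 0.430).

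Bin1 encodes an amphiphysin family protein that senses and forms membrane curvature. Its summed H3K27ac was 3287 and 4009 in WT and 3008 and 3191 in GrnKO, a log2 change of -0.23 (SE 0.10, adjusted p = 0.137). GrnKO lay below WT, and the spread between the WT libraries was wider than for the other genes. Of its regions 3 passed the threshold, all upstream of the start, and 14 of 19 were below 0 (11 with the authors' scaling). The region nearest the gene, 1596 bp upstream in an intron of the noncoding gene A830052D11Rik, had 300 and 233 in WT and 168 and 165 in GrnKO (log2 change -0.66, SE 0.17, adjusted p = 0.0194). The 17957 bp region, in exon 3 of 3 of the same noncoding gene, had 269 and 328 in WT and 170 and 235 in GrnKO (-0.57, adjusted p = 0.0492). The intergenic region 33867 bp upstream had 406 and 450 in WT and 317 and 320 in GrnKO (-0.43, adjusted p = 0.0499). The strongest region carrying the name, 29385 bp upstream, lay between these. WT had 602 and 855 and GrnKO 654 and 721, which overlap (-0.06, adjusted p = 0.831; 0.16 with the authors' scaling, and -0.32 without WT replicate 1, adjusted p = 0.0254), and it was not shown to differ from the other Bin1 regions (adjusted p = 0.893 in diffSplice, a test of a region against the rest of its gene). The promoter region had 206 and 290 in WT and 192 and 182 in GrnKO (-0.39, adjusted p = 0.198).

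The name rule leaves out most of the Bin1 gene body. Of 47 regions annotated inside Bin1 transcripts, 44 carry the name A830052D11Rik, and 43 of these were tested. Their median log2 change was -0.24, with 35 below 0, and 2 passed the threshold downward and 0 upward. Of all tested regions 50.1% were below 0, and 2.92% passed downward and 6.8% upward. The following 2 regions were named after their values were seen. In intron 5 of 17, H3K27ac was 73.9 and 46.9 in WT and 16.1 and 23.5 in GrnKO (-1.55, SE 0.37, adjusted p = 0.0114). In intron 14 of 17 it was 37.9 and 36.1 in WT and 14.7 and 8.997 in GrnKO (-1.60, SE 0.44, adjusted p = 0.0270). Summed by annotated transcript, an assignment added after the data were seen, Bin1 had 5462 and 6614 in WT and 4936 and 5019 in GrnKO (-0.27, SE 0.08, adjusted p = 0.0463).

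Sorl1 encodes a sorting receptor that returns cargo, including the amyloid precursor protein, from endosomes to the Golgi. Its sum by name changed little, with 973 and 994 in WT and 878 and 876 in GrnKO (log2 change -0.16, SE 0.11, adjusted p = 0.365, and 0.06 with the authors' scaling). Of its 19 named regions 11 are intergenic. The sum over the 8 regions inside its transcripts went the other way without passing. It had 144 and 108 in WT and 187 and 171 in GrnKO (0.52, SE 0.21, adjusted p = 0.143 in limma). Its regions moved in both directions: 7 of 14 tested were below 0 and 7 above. Just inside intron 1 of 47, 586 bp past the start, H3K27ac rose from 12.9 and 14.9 in WT to 45.8 and 34.1 in GrnKO. That is a log2 change of 1.45 (SE 0.41, adjusted p = 0.0316). The region also differed from the other regions of Sorl1 (adjusted p = 0.0116 in limma's diffSplice, which tests a region against the rest of its gene and called 2.45% of all regions, 1.56% higher and 0.893% lower), which was not so without WT replicate 1 (0.0983), GrnKO replicate 1 (0.440) or GrnKO replicate 2 (0.0825). The region over the start, which holds the promoter shown above, had 32.8 and 32.7 in WT and 54.0 and 51.7 in GrnKO without passing (0.67, adjusted p = 0.196). At 22391 and 23082 bp upstream 2 overlapping intergenic regions fell. The nearer one, chr9:42146288-42147088, had 190 and 158 in WT and 92.8 and 90.4 in GrnKO (-0.92, SE 0.20, adjusted p = 0.0068), and its neighbour changed by -0.74 (adjusted p = 0.0175). The strongest region, 3923 bp upstream, overlapped between genotypes, at 151 and 239 in WT and 201 and 162 in GrnKO (-0.07, adjusted p = 0.875; 0.15 with the authors' scaling).

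Rin3 encodes an exchange factor for Rab5 GTPases of early endosomes. Its sum was 2308 and 2287 in WT and 2103 and 2087 in GrnKO (log2 change -0.13, SE 0.08, adjusted p = 0.349; 0.09 with the authors' scaling). One region of the set lies 20753 bp upstream of Rin3, at chr12:102261921-102262721, inside intron 14 of 16 of the neighbouring gene Slc24a4. At that position H3K27ac was 3.13 and 3.40 in WT, from 4 and 6.5 recovered tags, and 31.4 and 34.6 in GrnKO, from 55.5 and 75 tags. Both WT libraries were under the filter minimum of 10 tags, so the region entered the test through GrnKO alone, which favours a difference; it was the 1 such region among the 20 called. The mean was 10.1-fold higher in GrnKO (log2 change 2.99, SE 0.58, adjusted p = 0.0027), and under the same limit the region differed from the other Rin3 regions (adjusted p = 4.0e-07 in diffSplice). The input libraries gave 0 and 24.6 tags per 10000000 there in WT and 2.77 and 0 in GrnKO. The inputs that gave 0 are shallow, with 91.3% (WT replicate 1) and 81.9% (GrnKO replicate 2) of all regions at 0. They cannot show whether the background differed at this position. A region 56718 bp past the start, in intron 3 of 9, fell from 136 and 165 in WT to 95.9 and 89.3 in GrnKO (-0.69, SE 0.21, adjusted p = 0.0408). A weaker region in the same intron, 46718 bp past the start, had 18.4 and 27.2 in WT and 6.79 and 8.31 in GrnKO. It differed from the rest of the gene (adjusted p = 0.0274 in diffSplice) but did not pass the test per region (-1.46, adjusted p = 0.101). In diffSplice the spread is pooled over all regions of a gene, so a faint region is judged by the spread of stronger ones too. The diffSplice call ended with the authors' scaling (0.0574) and leaving out any library but WT replicate 1 (0.163 to 0.408). The promoter (143 and 144 in WT, 176 and 128 in GrnKO) overlapped between genotypes, and the strongest region, 18890 bp past the start, had 312 and 318 in WT and 246 and 266 in GrnKO (-0.30, adjusted p = 0.222). A further 20 regions inside Rin3 carry the name of the neighbour Lgmn. Of these 19 were tested and 1 passed, against 9.71% of all tested regions in either direction. That region in intron 5 of 9, named after its values were seen, had 165 and 127 in WT and 216 and 286 in GrnKO (0.78, SE 0.19, adjusted p = 0.0141). Summed by annotated transcript the 56 regions in Rin3 changed by -0.0028 on the log2 scale (adjusted p = 0.987), with overlapping groups.

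**Figure D4:**
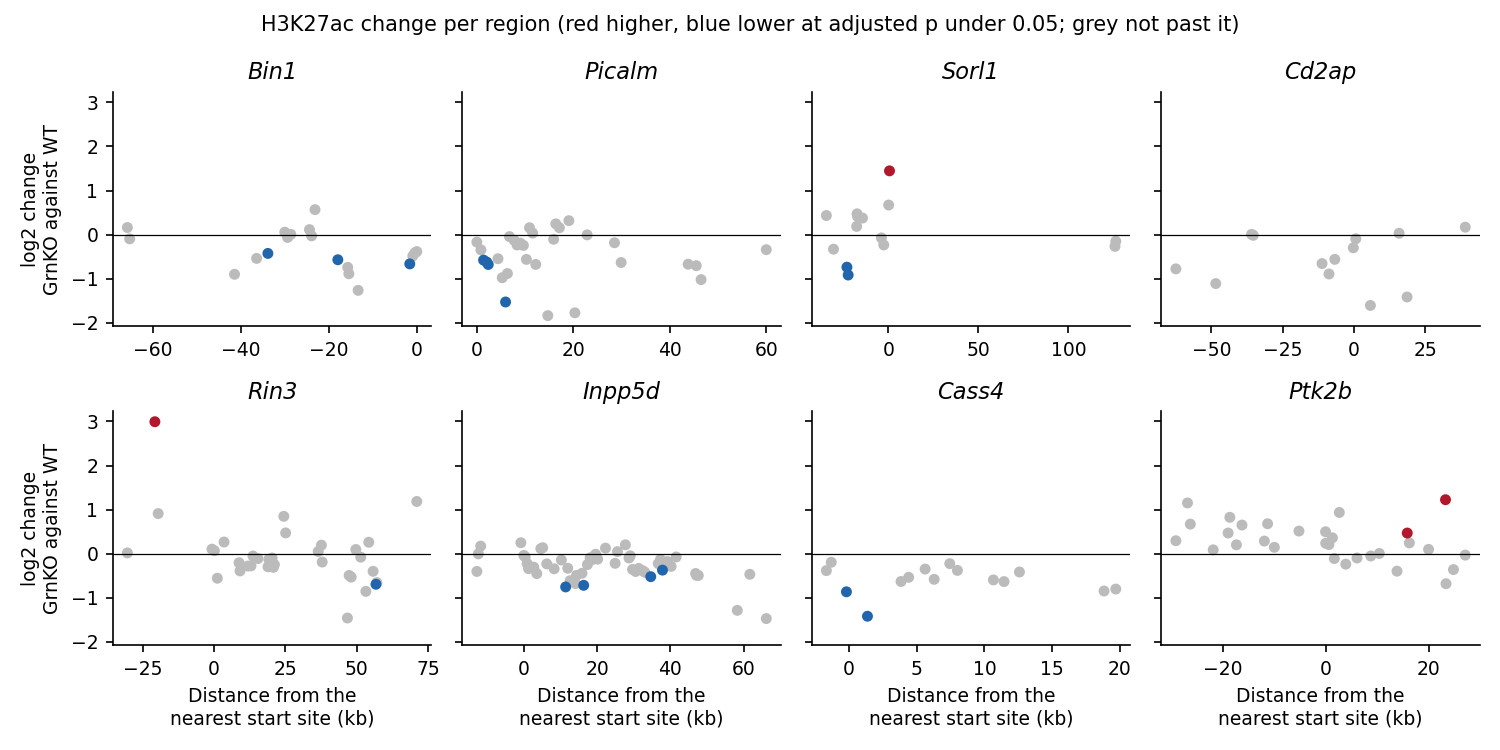
Log2 change of H3K27ac per tested region, GrnKO against WT, against the signed distance in kb from the nearest annotated start site, with 1 panel per gene and a line at 0. Red points (4) are higher and blue points (16) lower at an adjusted p under 0.05; all 15 Cass4 regions lie below the line, and 22 of 30 Ptk2b regions lie above it.

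Inpp5d encodes SHIP1, a lipid phosphatase that restrains signalling from immune receptors, and had by far the most H3K27ac of the set. Its 52 regions, all tested, summed to 14079 and 14130 in WT and 11798 and 12528 in GrnKO. Group means were 14104 ± 35.9 and 12164 ± 516 (n = 2 each), a log2 change of -0.21 (SE 0.06, adjusted p = 0.0221 in limma) that became 0.01 with the authors' scaling. The sum also did not pass with DESeq2 (adjusted p = 0.155), with no filter (0.0656) or with TMM factors from gene sums (0.0923), so its call depends on these choices. The promoter shown above did not differ, with 474 and 464 in WT and 477 and 436 in GrnKO (-0.04, adjusted p = 0.889; 0.19 with the authors' scaling). In introns 1 and 2 of 26, 4 regions fell. At 11439 bp past the start WT had 124 and 125, and GrnKO 72.4 and 75.0 (-0.75, SE 0.22, adjusted p = 0.0356). At 16355 bp WT had 115 and 136, and GrnKO 71.0 and 80.5 (-0.72, adjusted p = 0.0491). The other 2, at 34653 and 37856 bp, are far stronger and changed less. The first had 261 and 255 in WT and 182 and 176 in GrnKO (-0.52, adjusted p = 0.0463), and the second 673 and 669 in WT and 484 and 556 in GrnKO (-0.37, adjusted p = 0.0487). The strongest region of the gene overlaps the last of these and did not pass, at 970 and 870 in WT and 789 and 800 in GrnKO (-0.21, adjusted p = 0.215; 0.02 with the authors' scaling). Of the 52 regions 45 were below 0 with TMM and 28 with the authors' scaling. Below the median of all regions were 45 and 44, close by construction because the change of scaling shifts all regions almost alike. Toward the end of the listed stretch, in introns 6 and 9, 2 faint regions differed from the other regions of the gene in diffSplice (adjusted p 0.0139 and 0.0020), each resting on 1 to 24.5 recovered tags per library and neither passing the test per region. The pooling of spread described for Rin3 applies to both. The region in intron 9 had 7 and 6 tags in GrnKO, both under the filter minimum of 10, so it entered the test through WT alone, which favours a difference. With a pseudocount of 5 both diffSplice calls ended (adjusted p 0.473 and 0.0603), and the intron 6 call also ended with the authors' scaling (0.0703). Leaving out 1 library, the log2 difference from the other regions in intron 6 ran from -0.06 (without GrnKO replicate 1) to -1.97 (without GrnKO replicate 2). In intron 9 it ran from -0.93 (without GrnKO replicate 2) to -1.48 (without GrnKO replicate 1).

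Cass4 encodes a scaffold of the Cas family in integrin adhesion. Its sum was 1536 and 1707 in WT and 1112 and 1238 in GrnKO. At 1621 ± 121 against 1175 ± 88.9 (n = 2 each), both GrnKO libraries were below both WT libraries, a log2 change of -0.46 (SE 0.10, adjusted p = 0.0091). All 15 of its regions were below 0 with TMM and 14 with the authors' scaling, and both GrnKO libraries were below both WT libraries in 13. The promoter shown above, chr2:172393191-172393991 in the table, had 108 and 135 in WT and 80.3 and 53.8 in GrnKO (-0.86, SE 0.25, adjusted p = 0.0353). The next called region, 1352 bp past the start in intron 1 of 6, fell from 67.3 and 65.0 in WT to 19.8 and 29.3 in GrnKO (-1.42, SE 0.33, adjusted p = 0.0100). It was the 1 region of the set still called lower with the authors' scaling (-1.20, adjusted p = 0.0353). The strongest region, 8003 bp past the start, had 317 and 341 in WT and 232 and 276 in GrnKO (-0.38, adjusted p = 0.125). A further 2 regions inside Cass4 carry the name Rtf2, and neither passed, with log2 changes of -0.83 and -0.94.

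Ptk2b encodes PYK2, a tyrosine kinase of the focal adhesion kinase family that responds to calcium and integrins, and was the 1 gene whose GrnKO sums were both above WT. Its 34 regions summed to 2308 and 2469 in WT and 2804 and 2931 in GrnKO. Group means were 2389 ± 114 and 2868 ± 89.7 (n = 2 each), a log2 change of 0.26 (SE 0.08, adjusted p = 0.0508) that just missed the threshold. In intron 1 of 30, at chr14:66257407-66258207, H3K27ac rose 2.37-fold, from 45.0 and 47.7 in WT to 111 and 108 in GrnKO (1.23, SE 0.25, adjusted p = 0.0037). The strongest region of the gene, in the same intron, rose from 327 and 301 in WT to 445 and 424 in GrnKO (0.47, SE 0.13, adjusted p = 0.0310), a call that ended with the authors' scaling (adjusted p = 0.101) and with no filter (0.0789). Both GrnKO libraries were above both WT libraries in 14 of 30 tested regions and below them in 2. The region at the start site overlapped between genotypes, with 114 and 174 in WT and 164 and 169 in GrnKO (0.24, adjusted p = 0.537). Leaving out WT replicate 1 turned this promoter value to -0.07, and the log2 change of the sum was then 0.21.

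Abi3 encodes a protein of the Abl interactor family, which regulates actin, and its transcripts hold 11 regions, 8 under the name Gngt2 and 3 under Phospho1. Its strongest region, in intron 3 of 7, was among the most acetylated of all those described here and hardly differed, with 894 and 911 in WT and 906 and 876 in GrnKO (-0.02, adjusted p = 0.935). None of the 11 passed the threshold, with log2 changes from -1.06 to 0.09. The values furthest from 0 came from 3 regions at the end of the gene under the name Phospho1, and the lowest adjusted p was 0.0525. Summed by annotated transcript, Abi3 had 3326 and 3849 in WT and 3386 and 3433 in GrnKO, which overlap (-0.07, SE 0.08, adjusted p = 0.678).

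Promoters and distal regions of these genes were then compared directly. Summed within 1000 bp of a start site, 0 of the 8 genes passed (background 3.57% higher and 1.66% lower of 11084 genes). The promoter changes nearest the threshold were 0.97 at Sorl1 (adjusted p = 0.0531), -0.44 at Bin1 (adjusted p = 0.0709) and -0.86 at Cass4 (adjusted p = 0.077). Summed over the other regions, Picalm (-0.57, adjusted p = 0.0053), Cd2ap (-0.61, adjusted p = 0.0211), Inpp5d (-0.23, adjusted p = 0.0171) and Cass4 (-0.44, adjusted p = 0.0168) passed, against 7.13% lower and 10.9% higher of 11368 genes. The difference between distal and promoter change, in which the library scaling largely cancels, passed at 0 of the 8 genes (0.0273% of 7324 genes). It was furthest from 0 at Sorl1, where the distal sum went from 927 and 946 in WT to 778 and 790 in GrnKO while the promoter sum went from 45.8 and 47.7 to 99.8 and 85.8. That difference was -1.23 on the log2 scale (SE 0.22, adjusted p = 0.234).

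Other genes of Alzheimer risk loci were called higher more often than lower. Of 64 such genes in a list written from general knowledge, 61 had regions and 54 could be tested. The list was drawn up with earlier results of these data known, so its shares are not independent of them. Sums were higher in GrnKO at 13 (24.1%, against 8.59% of all genes) and lower at 2 (3.70%, against 5.88%), with a median log2 change of 0.05. Higher H3K27ac was measured at Apoe, the main lipid carrier of the brain, with 610 and 400 in WT and 944 and 819 in GrnKO (0.83, adjusted p = 0.0054). Ctsb, a lysosomal protease, had 1926 and 2585 in WT and 3492 and 3454 in GrnKO (0.64, adjusted p = 0.0021), and Ms4a4a, a myeloid membrane protein, 84.1 and 46.4 in WT and 188 and 183 in GrnKO (1.56, adjusted p = 0.0021). Psen2, a catalytic subunit of gamma-secretase, rose by 0.90 on the log2 scale (adjusted p = 0.0012), Treml2 by 0.81, Usp6nl by 0.53, Lilrb4a by 0.36 and Cyb561, from a low level, by 2.08. The genes that fell were Siglech, a microglial lectin (-0.37, adjusted p = 0.0106), and Jazf1 (-0.75, adjusted p = 0.0177). The counts moved when single libraries were left out, with the ranges given in the last section. With the authors' scaling they were 13 higher and 0 lower, against 10.6% higher and 1.08% lower of all genes. Of those 13, 11 were shared with TMM: Lilrb4a (adjusted p = 0.122) and Rhoh (0.263) no longer passed, while Adamts1 and Ap4e1 newly did. The difference in balance between this list and the 8 genes was not tested.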

How the data were processed

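The genes and lists were chosen with earlier results of these data known. The authors deposited 1 table of signal: per the file headers, tags in 800 bp windows on merged reproducible ATAC-seq peaks, scaled to 10000000 per library. The submitters' processing notes name Bowtie2, HOMER, DESeq2 and the build mm10, without roles; peak calling and duplicate handling are not given in the sources used here. Multiplying by the header totals returned whole read ends, at 2 per tag, for 100% of values (tolerance 0.1). The main test was limma 3.58.1 (R 4.3.3) on log2(TMM-scaled value + 1), genotype only, over the 4 H3K27ac libraries; this scale understates changes of low values. Regions were kept by filterByExpr of edgeR 4.0.16 with a minimum of 10 recovered tags, and p-values were Benjamini-Hochberg adjusted over 80728 regions or 15380 gene sums at 0.05. Count tests on recovered tags by edgeR and DESeq2 1.42.0 called 20 and 10 regions of these genes. The scripts were tested on simulated tags. Text names each gene's region nearest the start, its strongest, and those called. The labels name pools, not separate cultures or litters, and p-values measure the spread between pools. That spread includes whatever goes with the difference in Y-linked signal between replicates 1 and 2. Reads carry no molecular identifiers. Sequences are RefSeq's; 6 of the 9 genes matched with a printable window.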

Additional observations from a re-analysis of the deposited data

How the results depend on the processing

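Limits: with 2 pools per genotype, the counts of calls moved with library scaling and with single libraries, and overlapping regions share tags. Regions lower in GrnKO numbered 16; they were 1 with the authors' scaling, 7 with DESeq2, 6 with no filter, and 0 to 29 leaving out 1 library. Regions higher numbered 4; they were 7 at an adjusted p under 0.1, 2 with no filter, 8 with the authors' scaling and without WT replicate 1 (added after seeing the data), and 0 to 11 leaving out 1 library. Gene sums lower numbered 4; they were 0 with the authors' scaling and 0 to 5 leaving out 1 library. Gene sums higher numbered 0; Ptk2b made it 1 with DESeq2, with TMM factors from gene sums (added) and with the authors' scaling without WT replicate 1, and the range leaving out 1 library was 0 to 1. With the library that remains alone assumed to vary like the other genotype, all tested regions gave 1138 to 9636 higher and 196 to 4779 lower leaving out 1 library. All regions lower were 333 with the authors' scaling and 1311 with no filter, and all regions higher 9418 with the authors' scaling and without WT replicate 1. Regions that differed from the rest of their gene numbered 5, 3 with the authors' scaling, and 2 to 6 leaving out 1 library. Other risk genes lower numbered 2, 0 with the authors' scaling, and 0 to 5 leaving out 1 library; other risk genes higher numbered 13, and 4 to 16 leaving out 1 library.

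With the replicate number as a block, members' regions were 7 higher and 24 lower, gene sums 1 higher and 5 lower, other risk genes 15 higher and 5 lower, and all regions 7403 higher and 3988 lower. Deviations of same-numbered libraries correlated at 0.034 over 80728 regions, and the numbers mark different mice. No label ties them to a batch, and they were not taken as pairs, although replicates 1 and 2 differ in Y-linked signal within both genotypes. Under the block the sums of Bin1 (adjusted p = 0.0293) and Ptk2b (0.0149) and the strongest Cd2ap region (0.0395) passed, which did not pass without it. Of the 5 diffSplice calls the Rin3 region 46718 bp past the start was lost (0.0963); the block changed no other call among the whole-gene sums and regions named for the 8 genes.

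Directions turned as follows, and the cause was not tested. With the authors' scaling the log2 changes became 0.16 (Bin1, 29385 bp upstream), 0.19 (Inpp5d promoter), 0.017 (strongest Inpp5d region), 0.056 (Picalm promoter), 0.15 (strongest Sorl1 region), 0.012 (Inpp5d sum), 0.093 (Rin3 sum) and 0.062 (Sorl1 sum). The Sorl1 sum was 0.52 by annotated transcript (added). With the authors' scaling and without WT replicate 1 the Inpp5d promoter was 0.038 and the Ptk2b promoter -0.0037. Leaving out 1 library gave -0.066 to 0.54 (Ptk2b promoter), -0.32 to 0.19 (Bin1, 29385 bp upstream), -0.40 to 0.25 (strongest Sorl1 region), -0.16 to 0.30 (Rin3 promoter), -0.10 to 0.026 (Inpp5d promoter) and -0.13 to 0.15 (Ptk2b distal minus promoter). Beside counts, 437 single values kept direction and side of the threshold, 105 no longer passed it and 19 newly passed it.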
